A study of Mus musculus with 24 samples.

Results

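The genes of glycolysis were followed in single NKT cells of the mouse liver. They were taken as the rows of the count matrix with the symbols Slc2a1, Hk1, Hk2, Aldoa, Tpi1, Gapdh, Pgk1, Pgam1, Eno1 and Ldha, which are 10 of the 24447 genes in the matrix. The cells were NK1.1+CD3e+ cells sorted from the liver and picked singly by hand, and each was sequenced with unique molecular identifiers (UMIs), so that a count is a number of distinct transcript molecules. Cells came from C57BL/6 wild-type (WT) mice, from Jα18-deficient mice, which lack type I NKT cells, and from CD1d-deficient mice, which have neither type I nor type II NKT cells. Mice were 8 to 10 weeks old, and neither their number nor their sex was given in the sources used here. The labels listed 8 libraries for each of the 3 genotypes, but a cell carried only its genotype in its name, so that each genotype was 1 pool here: 623 WT, 725 Jα18-deficient and 387 CD1d-deficient cells. The sort took any liver cell with NK1.1 and CD3e on its surface, so that the cells of the CD1d-deficient line were those that do not need CD1d. Cd1d1, the deleted gene of the CD1d line, had 854 UMIs in WT, 934 in Jα18-deficient and 0 in CD1d-deficient cells, which matched the labels. T cell receptor segments, which would check the Jα18 label, were not analysed here.

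Glycolysis turns glucose into pyruvate in the cytosol. Slc2a1 encodes the glucose transporter GLUT1, hexokinases trap glucose in the cell as a phosphate ester, and aldolase and triose phosphate isomerase split the sugar into the triose that Gapdh oxidises. Phosphoglycerate kinase, phosphoglycerate mutase and enolase then lead to pyruvate, which lactate dehydrogenase A reduces to lactate. T and NK cells carry these enzymes at rest and are known to raise glucose uptake and lactate output when activated, whereas the hepatocytes around them use the liver forms of several enzymes.

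Cells differed in depth, and depth moved with every grouping used here. The pools held 34102694, 60484252 and 14536585 UMIs for WT, Jα18-deficient and CD1d-deficient cells, with medians of 40467, 46670 and 13508 UMIs per cell. Levels are therefore given as CPM, the counts of a gene per 1000000 UMIs summed over the cells of a pool, with exact Poisson 95% intervals that cover counting error only. No test was made between genotypes, because 1 pool each leaves no spread between mice or libraries. T and NK identity markers (8 genes, Cd3e and Klrb1c among them) summed to 6098, 6874 and 6806 CPM in the WT, Jα18-deficient and CD1d-deficient pool, with all 8 detected in each. The sum hid different directions of the sort markers. Cd3e was lowest in the CD1d-deficient pool, at 255, 352 and 196 CPM, and was found in 89.6%, 96.7% and 74.9% of cells. Klrb1c was highest there, at 723, 869 and 956 CPM, and was found in 92.3%, 95.6% and 92.0%. These shares of cells were not taken at equal depth. Myeloid markers (14 genes, 11 or 12 detected) summed to 161, 85.5 and 1086, and hepatocyte markers (14 genes, 10 to 14 detected) to 78.1, 68.4 and 162. The CD1d-deficient pool thus stood apart in depth and in myeloid transcripts, S100a9 and Marco being at 0 in all 3 pools, and the part of either in the differences between pools was not tested.

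Enolase 1 could not be measured under its own symbol. Eno1 had 1 UMI in all, in a CD1d-deficient cell, while the symbol Eno1b had 586, 1270 and 183 UMIs in the WT, Jα18-deficient and CD1d-deficient pool. The gene lies on chromosome 4 (149610830 to 149622988, NCBIM37, plus strand), and its transcript had 5 further matches in that genome, the closest 99.6% identical over the aligned length. Of the 1305 bases of its coding sequence, 8 differed from the copy that carries the Eno1b name. The last 150 coding bases of Eno1 (bases 1554 to 1703 of its transcript, NCBIM37) are shown because they let a reader see how little separates the pair, with the 2 bases that differ from the copy in capitals.

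Eno1 coding end: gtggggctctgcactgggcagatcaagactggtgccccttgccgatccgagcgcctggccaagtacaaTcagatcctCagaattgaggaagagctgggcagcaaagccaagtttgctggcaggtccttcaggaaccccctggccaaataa

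Reads of Eno1 and Eno1b from such a stretch cannot be told apart except at the capitals, so neither symbol is read as a level of its own, and Eno1 is left out of all comparisons. Of the 100-base windows of the Eno1 transcript 59.0% were found elsewhere in the genome, and 48.4% of those in its last 500 bases. The other windows were not, and why the Eno1 symbol had so few UMIs was not tested. At 0 UMIs, the WT pool allows up to 0.0880 and the Jα18-deficient pool up to 0.0496 CPM for Eno1. Of the UMIs of the enolase symbols Eno1, Eno1b, Eno2 and Eno3, Eno1b had 78.4% in WT, 62.3% in Jα18-deficient and 45.4% in CD1d-deficient cells, where Eno3, the muscle enolase, had 14.9 CPM.

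Near-identical copies touched other members too. Gapdh (chromosome 6, 125111871 to 125116485, minus strand) had 192 copies in the genome, and 85.1% of the 100-base windows of its transcript were found elsewhere. Pgk1 (chromosome X, 103382439 to 103399038, plus strand) shared 89.8% of its windows with 2 copies, and Pgam1 (chromosome 19, 41986361 to 41993154, plus strand) shared 87.1% with 3. Counts of these genes are uncertain to the extent that the authors' alignment split reads among copies. Tpi1 (chromosome 6, 124760604 to 124764314, minus strand) shared 7.69% and Ldha (chromosome 7, 54096845 to 54110997, plus strand) 1.32% of windows. Aldoa (chromosome 7, 133938748 to 133944265, minus strand), Hk1 (chromosome 10, 61731603 to 61842656, minus strand), Hk2 (chromosome 6, 82675019 to 82724448, minus strand) and Slc2a1 (chromosome 4, 118781316 to 118809935, plus strand) shared none.

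Of the members' promoters 1 window each is shown for Ldha, lower in both deficient pools over all cells, and for Hk1, the member that was higher in both with at least 100 UMIs in every pair. Windows from 250 bases before to 50 after a RefSeq start (GRCm38.p6) were searched on both strands for ACGTG and GCGTG, the core of sites for hypoxia-inducible factors, which drive glycolysis genes under low oxygen. In the sequences these matches are in capitals. A CACGTG reads as ACGTG on both strands and counts as 2 matches.

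Ldha, chr7:46845554-46845853, plus strand: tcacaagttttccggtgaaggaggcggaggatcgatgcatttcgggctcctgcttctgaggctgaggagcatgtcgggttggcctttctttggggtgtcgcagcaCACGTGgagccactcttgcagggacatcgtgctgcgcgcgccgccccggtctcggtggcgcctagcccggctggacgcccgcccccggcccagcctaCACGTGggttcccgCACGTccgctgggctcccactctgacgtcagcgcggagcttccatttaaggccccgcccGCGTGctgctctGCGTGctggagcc

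Hk1, chr10:62340372-62340671, minus strand: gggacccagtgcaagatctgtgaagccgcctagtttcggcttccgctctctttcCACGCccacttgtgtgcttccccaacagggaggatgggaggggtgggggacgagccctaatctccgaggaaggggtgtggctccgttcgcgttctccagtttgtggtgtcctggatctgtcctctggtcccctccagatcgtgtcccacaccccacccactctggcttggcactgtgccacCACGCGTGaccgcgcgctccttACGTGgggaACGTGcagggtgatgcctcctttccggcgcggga

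Both genes have 2 windows, and the one with more matches is shown. The Ldha window shown held 7 matches, 4 of them from its 2 CACGTG, and the Hk1 window shown held 5, while the other windows of Ldha and Hk1 held 2 and 0. Either motif was in 13 of 16 windows of the members, against 43.8% of 32851 promoter windows of all genes. Some windows of Aldoa and of Eno1 overlap and share their matches, so that the 16 are not distinct. By gene, 9 of the 10 had a motif in at least 1 window, Tpi1 being the exception. The share by gene over all genes is not given here. Such letters are a description of the sequence and say nothing of binding.

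Glucose entry and trapping came first in the pathway. Slc2a1 was at 33.1 CPM in WT (95% interval 31.2 to 35.1), 32.4 in Jα18-deficient (31.0 to 33.9) and 19.9 in CD1d-deficient cells (17.7 to 22.4). The WT and Jα18-deficient intervals overlapped, and the CD1d-deficient pool was lower, with a log2 ratio to WT of -0.73. Over 5 alternatives, means of cells and thinned cells among them, the Jα18-deficient over WT ratio ran from -0.41 to 0.02. The CD1d-deficient pool stayed lowest, from -0.79 to -0.59 against WT and from -0.73 to -0.19 against the Jα18-deficient pool. The likeness of the WT and Jα18-deficient pools thus depended on the weighting. Only 290 UMIs lay behind the CD1d-deficient value, and 10 cells held 70.7% of them. Slc2a1 made up 47.8%, 45.2% and 42.2% of the UMIs of Slc2a1 and Slc2a3 together, Slc2a3 being the other glucose transporter of lymphocytes.

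Hk1, the hexokinase of most tissues, was at 46.2 CPM in WT (43.9 to 48.5), 65.1 in Jα18-deficient (63.1 to 67.1) and 93.6 in CD1d-deficient cells (88.7 to 98.7). The 3 intervals did not overlap, and the CD1d-deficient pool was 2.03 times the WT pool, a log2 ratio of 1.02. The difference between these pools rested on few cells: 10 CD1d-deficient cells held 67.9% of that pool's Hk1 UMIs, against 29.7% in the WT pool. With every cell given the same weight, the mean Hk1 level was 50.003, 60.6 and 59.8 CPM, and the CD1d-deficient over WT log2 ratio was 0.26. The WT pool stayed lowest in that reading too, while the order of the deficient pools was not kept. Hk2, the hexokinase that many activated and tumour cells induce, was nearly absent, with 52, 168 and 28 UMIs in the WT, Jα18-deficient and CD1d-deficient pool. Hk1 therefore gave 96.7%, 95.6% and 97.5% of the UMIs of Hk1, Hk2 and Hk3.

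Of the sugar-splitting enzymes Aldoa varied least between the pools when UMIs were summed. It was at 654 CPM in WT cells (646 to 663), at 645 in Jα18-deficient cells (638 to 651) and at 590 in CD1d-deficient cells (578 to 603). The WT and Jα18-deficient intervals overlapped, and the largest of the log2 ratios between summed pools was -0.15. Tpi1 was at 130 CPM (127 to 134) in WT cells, at 124 (121 to 127) in Jα18-deficient cells and at 92.2 (87.3 to 97.3) in CD1d-deficient cells. As means of cells Aldoa was at 664, 621 and 522 and Tpi1 at 127, 116 and 99.4, so that both kept the order of the sums. The CD1d-deficient over WT log2 ratio was then -0.35 for both genes.

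The payoff steps were lowest in the CD1d-deficient pool when UMIs were summed. Gapdh, which the study used as its reference gene in PCR, was at 1065 (1054 to 1076), 969 (961 to 976) and 802 (788 to 817) CPM in WT, Jα18-deficient and CD1d-deficient cells. Pgk1 was at 192 (187 to 197), 174 (171 to 177) and 124 (119 to 130). Pgam1 was at 162 (158 to 166), 144 (141 to 147) and 128 (123 to 134). For these 3 genes the intervals of the pools were apart, in the order WT, Jα18-deficient, CD1d-deficient. As means of cells, however, Gapdh was at 989, 1036 and 922, Pgk1 at 176, 151 and 170 and Pgam1 at 164, 145 and 162, so that the order depended on how cells were weighted. Gapdh was not level between the pools, with a CD1d-deficient over WT log2 ratio of -0.41.

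Over all cells Ldha was lower in both deficient pools than in WT, as a sum and as a mean of cells. It was at 846 CPM in WT (837 to 856), 617 in Jα18-deficient (611 to 623) and 652 in CD1d-deficient cells (639 to 665). The log2 ratio to WT was -0.46 for the Jα18-deficient and -0.38 for the CD1d-deficient pool, and as means of cells it was -0.48 and -0.42. In cells with UMIs of both Cd8a and a Ly49 receptor, Ldha was at 816, 650 and 639 in WT, Jα18-deficient and CD1d-deficient cells, and in cells with neither at 860, 783 and 663. The WT pool was highest among both of these kinds of cell, but not among all: in Cd8a positive cells without a Ly49 UMI, Ldha was at 690, 613 and 1308, the last from 24 CD1d-deficient cells of which 10 held 95.7% of the UMIs. Ldha gave 91.5%, 90.1% and 91.7% of the UMIs of Ldha and Ldhb, Ldhb being the form that favours pyruvate.

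**Figure D1:**
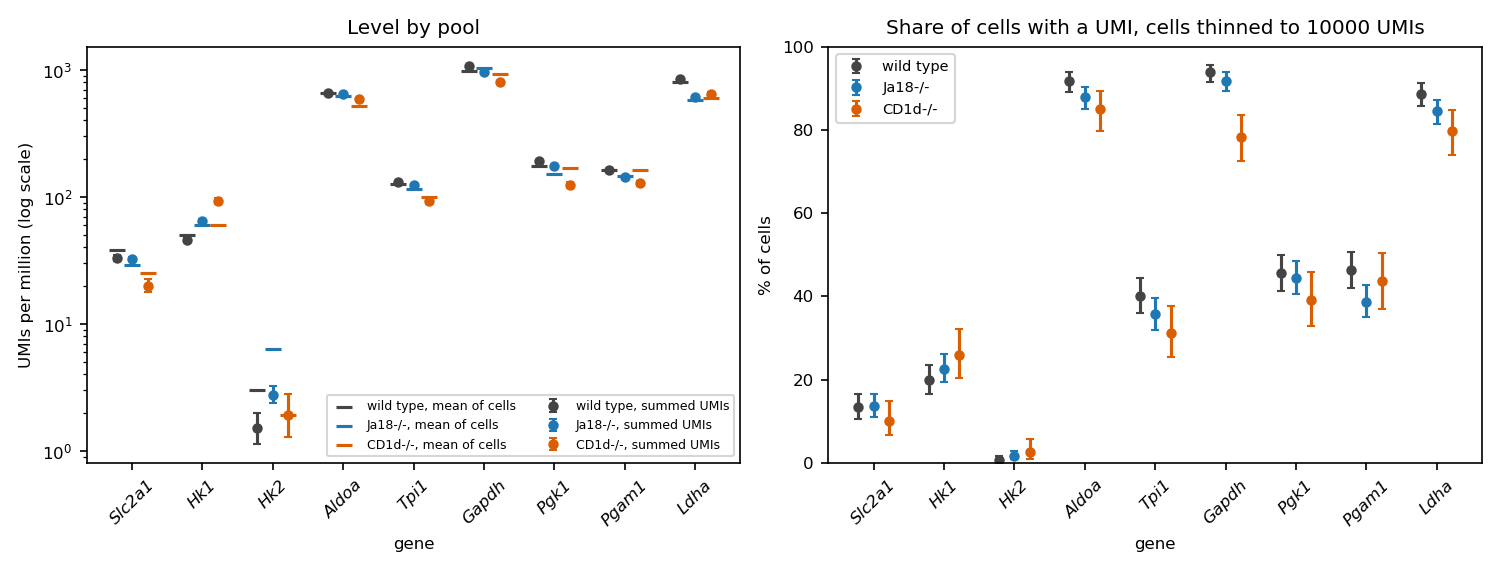
The left panel plots each gene's level on a log axis in CPM, with a point and exact Poisson 95% interval for the UMIs summed over a pool and a dash for the mean over its cells, and the right panel plots the percent of cells with a UMI after every cell was thinned to 10000 UMIs, with exact binomial 95% intervals. In the left panel Hk1 is highest in the CD1d-deficient pool as a sum (93.6) but not as a mean of cells (59.8). Ldha is highest in WT in both readings of that panel (846 as a sum, 805 as a mean of cells).

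The size of these differences was set beside that of all genes. In the Jα18-deficient over WT comparison, 21.1% of the 10267 genes that reached 100 UMIs over both pools were past 2-fold, and 0 of the 9 members were. In CD1d-deficient over WT, 24.4% of 9447 genes and 1 of 8 members, Hk1, were past it, Hk2 having too few UMIs. In CD1d-deficient over Jα18-deficient it was 27.2% of 10042 genes and 0 of 9 members. The median log2 ratio of the members was -0.07, -0.39 and -0.27 in these comparisons, beside 0.13, 0.01 and -0.13 for all genes. The comparisons share pools, so that they are not independent of each other.

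At equal depth Gapdh was found in fewer CD1d-deficient cells than in those of the other pools. When each cell was thinned to 10000 UMIs, which left out 100 WT, 93 Jα18-deficient and 160 CD1d-deficient cells that were shallower, a Gapdh UMI was found in 93.9% (91.5 to 95.8) of WT, 91.9% (89.5 to 93.9) of Jα18-deficient and 78.4% (72.5 to 83.6) of CD1d-deficient cells. Before thinning the shares over all cells were 96.0%, 97.8% and 87.9%. Ldha was found in 88.7%, 84.5% and 79.7% and Aldoa in 91.8%, 88.0% and 85.02% of thinned cells, and the WT and Jα18-deficient intervals of Ldha overlapped. Tpi1, Pgk1 and Pgam1 were each found in 31.3% to 46.3%, Hk1 in 19.9% to 26.0%, Slc2a1 in 10.1% to 13.6% and Hk2 in 0.574% to 2.64%. A thinned cell had a median of 4 of the 10 members in each pool.

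The classes of cells asked whether glycolysis genes differ between the kinds of NKT cell. Cells were split by detection of Cd8a, of a Ly49 receptor gene (Klra1, Klra5, Klra7 or Klra9), of S1pr1, a receptor for exit from tissue into blood, and of the proliferation genes Mki67 or Top2a. Counts were summed by pool and class and tested with edgeR with pool as a term, so that n is 3 pools of different genotypes. The edgeR log2 fold changes below are of cells with the gene over cells without it. Cells with the gene were deeper in all 12 comparisons of medians, for example 70900.5 against 33257 UMIs for Cd8a in the Jα18-deficient pool, and the part of depth in class differences was not tested directly, but the sums were also taken after thinning.

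No member passed the test for a difference with Cd8a. There were 97, 324 and 234 cells with a Cd8a UMI in the WT, Jα18-deficient and CD1d-deficient pool. The quasi-likelihood test called 11 of 11103 genes, which is 0.0991%, and 0 of the 9 members tested, with 0 at an unadjusted p under 0.05. DESeq2 and limma called 0 members in this and in each of the other 3 splits. A sign shared by 3 of 3 pools after TMM scaling was found for 25.0% of all genes and for 0 of the 9 members, while in plain CPM Gapdh was lower in positive cells of each pool. Gapdh was at 1023, 956 and 786 CPM in Cd8a positive WT, Jα18-deficient and CD1d-deficient cells and at 1075, 989 and 861 in negative ones. Its log2 fold change was -0.08 with a 95% interval of -0.32 to 0.16, that is, from 0.803 to 1.12 times the negative cells. Aldoa (0.04, -0.24 to 0.32) and Ldha (0.09, -0.18 to 0.36) were held nearly as tightly, while Slc2a1 (0.50, -0.49 to 1.49) and Hk1 (0.21, -0.52 to 0.95) had wide intervals, so that larger differences of those were not detectable here.

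Ly49 receptors are MHC class I receptors of NK cells, and the split by them held the 1 member at an unadjusted p under 0.05 in the edgeR test as designed, Ldha, beside 616 of all 10898 genes. It passed that threshold in 6 of 12 alternatives, not with DESeq2, limma, thinned cells, no pool term or without the Jα18-deficient or the CD1d-deficient pool. There were 241, 641 and 326 Ly49 positive cells and 382, 84 and 61 negative cells in WT, Jα18-deficient and CD1d-deficient mice. edgeR called 21 of 10898 genes, 0.193%, the 4 Klra genes of the split among them, and 0 of 9 members. Ldha was at 864, 612 and 621 CPM in positive and at 831, 748 and 1018 in negative cells of the WT, Jα18-deficient and CD1d-deficient pool. It was lower in positive cells of both deficient pools and slightly higher in those of the WT pool. The plain log2 ratios were 0.06, -0.29 and -0.71, and 0.02, -0.48 and -0.80 after TMM scaling. As means of cells they were -0.01, -0.18 and -0.28, and 10 of the 61 negative CD1d-deficient cells held 78.0% of the Ldha UMIs. Its log2 fold change in edgeR was -0.42 (-0.81 to -0.04) with a Benjamini-Hochberg adjusted p of 0.867, so that it was not called. Pgam1 was at 140, 143 and 125 in positive and 181, 178 and 169 in negative cells, lower in 3 of 3 pools, with a log2 fold change of -0.48 (-1.02 to 0.06) and an adjusted p of 0.932 in edgeR. The same sign in 3 of 3 pools after TMM scaling was shared by 28.0% of all genes tested and by 2 of the 9 members. These were Pgam1 and Hk2. In plain CPM Hk1 shared a sign as well, so that a shared sign alone sets none of them apart. Hk2 had 14, 1 and 0 UMIs in negative cells of the WT, Jα18-deficient and CD1d-deficient pool. Its WT log2 ratio was 1.70 as a sum and -0.52 as a mean of cells.

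S1pr1 positive cells were few, 37, 113 and 38 in the WT, Jα18-deficient and CD1d-deficient pool. edgeR called 5 of 10723 genes, 0.0466%, and 0 of 9 members, none of them at an unadjusted p under 0.05. Gapdh was at 1172, 999 and 918 CPM in positive and at 1058, 958 and 786 in negative cells, higher in 3 of 3 pools, with a log2 fold change of 0.27 (-0.06 to 0.59). As means of cells the log2 ratios were 0.14, -0.12 and -0.12, so that the direction turned in both deficient pools, and 10 of the 38 positive CD1d-deficient cells held 79.0% of the Gapdh UMIs. Lactate dehydrogenase leaned to the A form in S1pr1 positive cells: Ldha gave 95.2%, 96.3% and 98.3% of the Ldha and Ldhb UMIs there, against 91.2%, 88.2% and 90.9% in negative cells. The binomial intervals of the classes did not overlap in any pool, but they cover counting error only. In each pool 10 positive cells held much of the Ldha UMIs of that class, 64.4%, 48.0% and 77.1%. The share in positive CD1d-deficient cells was 1006 of 1023 UMIs. Ldhb had a log2 fold change in edgeR of -1.67 (-2.78 to -0.57) with an adjusted p of 0.842, beside 0.05 (-0.30 to 0.40) for Ldha, so that neither passed the test over all genes. The share was also higher in Cd8a positive cells of each pool (96.5%, 91.7% and 91.8% against 90.5%, 87.3% and 91.1%), with overlapping intervals in the CD1d-deficient pool. The shares of both splits were singled out after their values were seen. A sign shared by 3 of 3 pools after TMM scaling was found for 29.0% of all genes and for 4 of the 9 members. These were Gapdh, Hk2, Pgk1 and Tpi1, of which Pgk1 and Tpi1 did not share it in plain CPM. Hk2 had 6, 48 and 7 UMIs in positive cells of the WT, Jα18-deficient and CD1d-deficient pool.

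**Figure D2:**
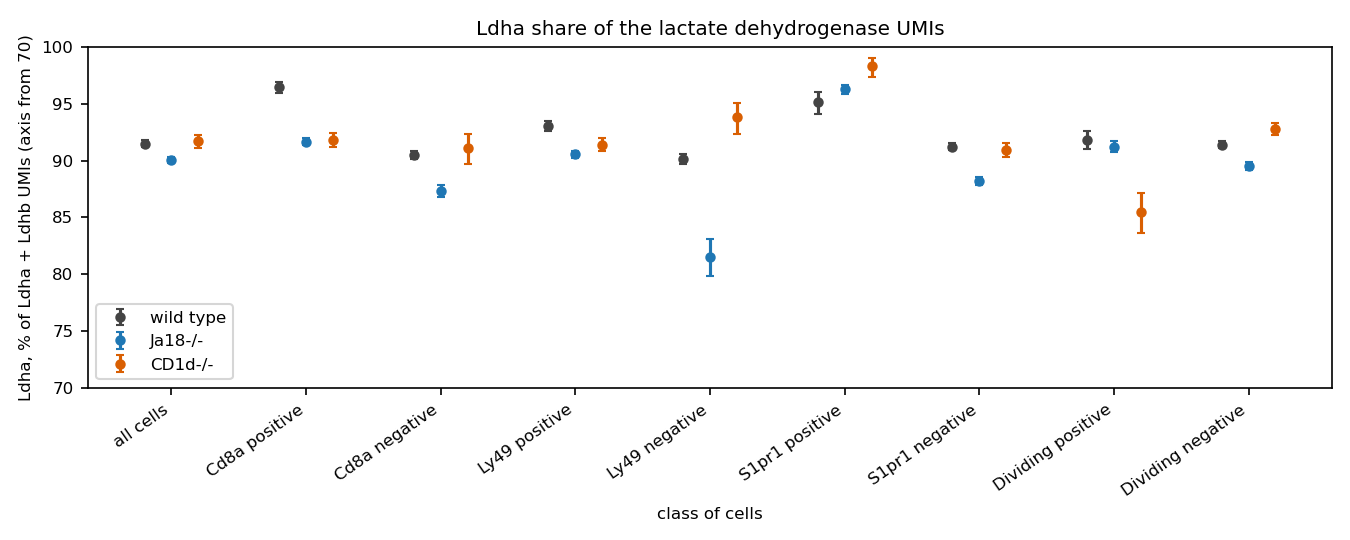
Points give Ldha as a percent of the Ldha and Ldhb UMIs in each class of cells and pool, with exact binomial 95% intervals that cover counting error only, on an axis that starts at 70%. S1pr1 positive cells lie at 95.2% to 98.3%, above the negative cells of their own pool in all 3 pools.

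Dividing cells, as far as a UMI of Mki67 or Top2a marks them, numbered 48, 129 and 22. edgeR called 4 of 10841 genes, 0.0369%, namely Mki67, Top2a, Pclaf and Stmn1, all of them proliferation genes and the first 2 the split itself, and 0 of 9 members. Pgam1 was at 163, 173 and 254 CPM in dividing and at 162, 131 and 108 in other cells of the WT, Jα18-deficient and CD1d-deficient pool, with a log2 fold change of 0.67 (-0.05 to 1.39) and an adjusted p of 0.906 in edgeR. Its level was almost the same in both kinds of WT cell and apart by a log2 ratio of 1.23 in the CD1d-deficient pool, where 10 of 22 dividing cells held 98.5% of the Pgam1 UMIs. Ldha (0.25, -0.16 to 0.66), Gapdh (0.30, -0.11 to 0.70) and Pgk1 (0.44, -0.19 to 1.07) had estimates above 0 whose intervals took in 0. Estimates below 0, also with intervals that took in 0, were those of Hk2 (-1.69, -5.31 to 1.94), Slc2a1 (-1.56, -3.63 to 0.51), Hk1 (-0.58, -1.77 to 0.61), Aldoa (-0.11, -0.59 to 0.36) and Tpi1 (-0.04, -0.82 to 0.74). A sign shared by 3 of 3 pools after TMM scaling was found for 28.4% of all genes and for 5 of the 9 members. Hk2 and Slc2a1 were lower in dividing cells, and Ldha, Pgam1 and Pgk1 were higher. Of these Pgk1 did not share its sign in plain CPM. Hk2 had 2 UMIs in dividing WT cells and 0 in dividing CD1d-deficient cells, where Slc2a1 had 1. The shared signs of Hk2 and Slc2a1 thus rest in part on counts at the floor.

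**Figure D3:**
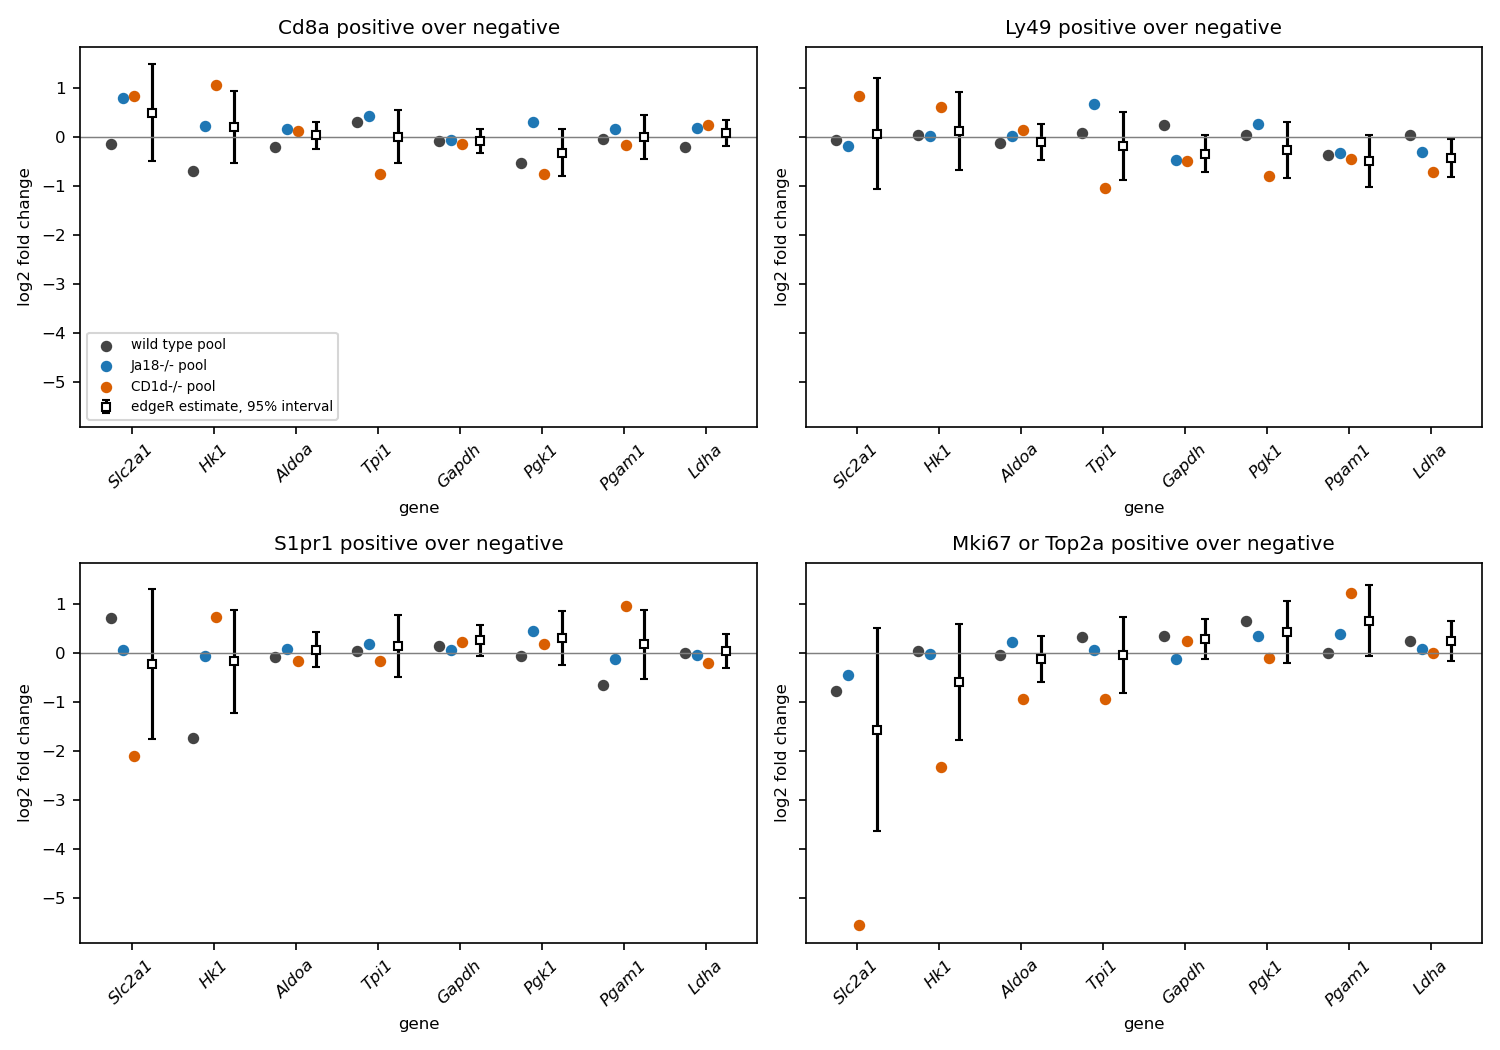
Each panel is a split of the cells, with the log2 fold change of positive over negative cells on the y axis, coloured points for the plain ratio of CPM in each of the 3 pools and open squares for the edgeR estimate with its 95% interval. Among the 8 genes drawn (Hk2 had too few UMIs), the interval excludes 0 for Ldha in the Ly49 split alone; the lowest point, Slc2a1 in dividing CD1d-deficient cells at -5.55, rests on 1 UMI.

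The rest of the pathway gave no call in any split. Of 26 other glycolysis genes in the matrix, 20 or 21 were tested in each split and 0 were called; of 12 genes for the fate of pyruvate and 20 regulators tested in each, 0 were called either. An unadjusted p under 0.05 in edgeR was reached by 598 to 616 genes in the Ly49, S1pr1 and dividing splits. Of these lists they were Pkm (log2 fold change -0.40, -0.80 to -0.01), Ldhb (-0.81, -1.56 to -0.06) and Max (-0.996, -1.82 to -0.17) with Ly49. With S1pr1 they were Ldhb, Pdp2 (1.45, 0.33 to 2.57) and Prkaa1 (-2.88, -5.44 to -0.33). In dividing cells they were Slc16a7 (-7.04, -13.59 to -0.50), Pdk3 (-2.52, -4.70 to -0.34) and Epas1 (-5.58, -10.44 to -0.73). The adjusted p of these genes in edgeR was between 0.823 and 0.901, and none was at that threshold with Cd8a. Slc16a7 and Epas1 were near the floor in dividing and other cells of every pool. Their levels after TMM scaling were no higher than 1.13 and 2.05 CPM, so that their large estimates rest on very few UMIs. Pkm, the pyruvate kinase of non-liver tissue, was at 500, 503 and 438 CPM in the WT, Jα18-deficient and CD1d-deficient pool, and Gpi1, the isomerase between hexokinase and phosphofructokinase, at 214, 208 and 190. Among phosphofructokinases Pfkp led with 93.7, 113 and 97.6, beside 21.7, 30.0 and 20.02 for Pfkl. Of the enzymes that mark hepatocytes, G6pc and Pklr had no UMI in any pool.

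The 10 genes together made up 0.313%, 0.277% and 0.2505% of the summed UMIs of the WT, Jα18-deficient and CD1d-deficient pool, and 0.287%, 0.252% and 0.236% of the UMIs of the median cell. The interquartile range ran from 0.205% to 0.367% in WT, from 0.177% to 0.338% in Jα18-deficient and from 0.151% to 0.333% in CD1d-deficient cells, so that the pools overlapped widely. Cells without any UMI of the 10 genes numbered 4, 0 and 3. The rank correlation of the share with depth was weak. Spearman's rho with the UMIs of a cell was 0.10, 0.07 and 0.00 over the cells of the 3 pools. Those cells share library and depth within a pool. From the lowest to the highest depth quartile the median share went from 0.271% to 0.301% in WT cells. It went from 0.243% to 0.280% in Jα18-deficient and from 0.216% to 0.243% in CD1d-deficient cells. By class, the median share was 0.284% in Ly49 positive and 0.289% in negative WT cells, 0.249% and 0.287% in Jα18-deficient cells and 0.229% and 0.271% in CD1d-deficient cells.

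**Figure D4:**
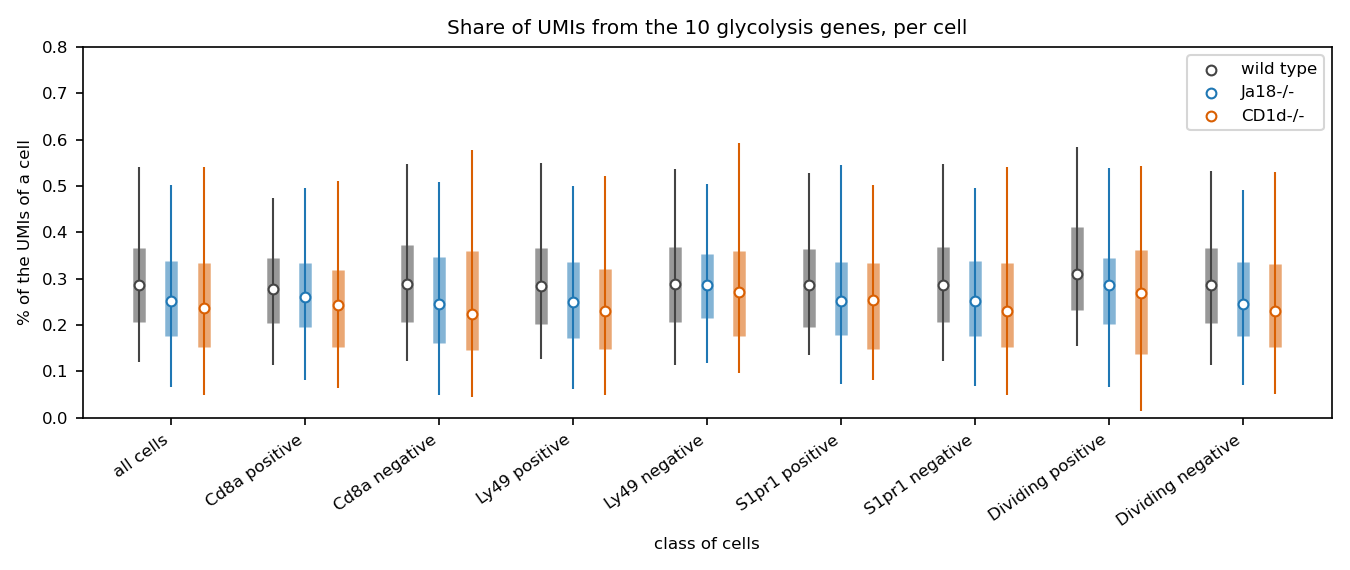
The y axis is the percent of a cell's UMIs that came from the 10 genes; circles are medians, thick bars the interquartile range and thin lines the 5th to 95th percentile, by pool and class. Medians run from 0.223% to 0.310% over the classes drawn, and the interquartile ranges of the positive and negative cells of each split overlap in each pool.

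Within a pool the members rose and fell together only weakly from cell to cell. In thinned cells the variance of the UMIs was above their mean for each member, the ratio running from 1.26 for Hk2 in CD1d-deficient cells to 9.13 for Ldha in the same pool. The median cell had 9, 8 and 6 Gapdh UMIs, 6, 5 and 4 Ldha UMIs and 6, 5 and 4 Aldoa UMIs in WT, Jα18-deficient and CD1d-deficient cells. Pearson's r of log counts, averaged over the 3 pools (523, 632 and 227 cells), was highest for Gapdh with Ldha at 0.12 (0.06 to 0.19 over pools), then 0.11 for Gapdh with Pgk1, and lowest for Hk1 with Tpi1 at -0.06. In counts this sparse such values describe the data and are not a finding.

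**Figure D5:**
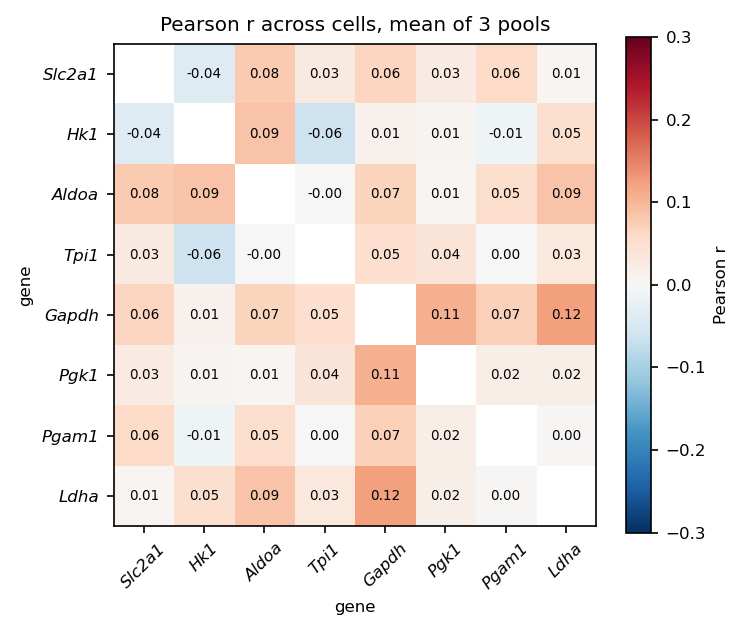
The grid gives Pearson's r across thinned cells for each pair of 8 genes, averaged over the 3 pools, with the value printed in each square and blue to red for -0.3 to 0.3. Values run from -0.06 to 0.12, and the highest are for Gapdh with Ldha and with Pgk1.

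The genes most like the summed members were sought among all genes found often enough. Among 1996 genes found in at least 20% of thinned cells of each pool, the median mean r with the summed members was 0.04, and outside the members the highest was Ppia, a peptidyl-prolyl isomerase, at 0.31. It was followed by Cfl1, Atp5b, Rac2, Hsp90ab1, Ptma, Actg1, Coro1a, Rpl19 and Rpl10, at 0.26 to 0.21. Ppia had an r of 0.31, 0.30 and 0.32 in the 3 pools, while Coro1a, an actin-binding protein of leukocytes, ranged from 0.05 in WT to 0.39 in CD1d-deficient cells. At the other end Malat1, a nuclear long noncoding RNA, had a mean r of -0.22. These cells share depth after thinning but not RNA quality, whose part was not tested.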

How the data were processed

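Per the methods, reads were trimmed with Cutadapt 1.15, aligned to the mm9 transcriptome with TopHat 2.0.12, collapsed by UMI and counted with HTSeq 0.10.0. The deposited matrix holds whole, unnormalized counts of UMIs per gene and cell. Whether counting used strand was not given in the sources used here. The stated filter (over 500 genes, 10000 to 600000 UMIs) left 1382 of the 1735 cells in the matrix; the others were kept, and leaving them out was an alternative. No cells had identical counts.

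Classes were compared with the edgeR 4.0.16 quasi-likelihood test (R 4.3.3) on counts summed per pool and class, with TMM, filterByExpr and pool as a term. A gene was called at a Benjamini-Hochberg adjusted p under 0.05 over all genes tested and an absolute ln fold change above 0.25. Pools of different genotypes were the replicates. With pool as a term, p-values measure how far the class difference varied over the pools, with a variance that edgeR moderates by that of all genes. Pools were compared without a test, ratios being read from 100 UMIs over both pools. Shares have exact Clopper-Pearson and levels exact Poisson 95% intervals; for counts of 0 the upper limit is 3 UMIs. Thinning drew 10000 UMIs per cell (seed 1). Copies were searched with BLAST 2.17.0 in NCBIM37, the mm9 assembly (at least 80% of the transcript at 85% identity); windows of 100 bases counted as shared when found elsewhere without a difference.

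The members tested were counted in every split, but not every split gives the values of each. Of the other lists the genes called or needed for counts of 5 or fewer were named. Values of further pathway genes were chosen after they were seen. The members, the gene lists and the tests were chosen with earlier results of these data known. DESeq2 1.42.0 and limma 3.58.1 were alternatives. The code was tested on simulated data.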

Additional observations from a re-analysis of the deposited data

Results flagged for a closer look

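For 5 of the 36 sets of a member and a split with UMIs in the pools, the difference between classes ran in opposite directions in 2 pools, past 0.5 on the log2 scale in each and with counting intervals that leave out 0. The difference between the pools was not tested in any of them, since a genotype is 1 pool. Hk1 was higher in Cd8a positive cells of the CD1d-deficient pool (log2 ratio 1.06) and lower in those of the WT pool (-0.68), 1.74 apart. In the S1pr1 split it was again higher in the CD1d-deficient pool (0.75) and lower in the WT pool (-1.72), 2.47 apart. There 10 CD1d-deficient cells held 97.2% of the Hk1 UMIs of the positive class, and positive WT cells had 32 UMIs. As means of cells the Hk1 ratios in the CD1d-deficient and WT pool were 0.79 and -0.72 with Cd8a. With S1pr1 they were 0.27 and -2.28. Tpi1 was higher in Ly49 positive cells of the Jα18-deficient pool (0.69) and lower in those of the CD1d-deficient pool (-1.03), 1.72 apart, but the same ratios as means of cells were 0.16 and -0.17. Pgam1 in S1pr1 positive cells was at 0.97 in the CD1d-deficient and -0.64 in the WT pool, 1.61 apart, and at 0.18 and -0.16 as means of cells. Slc2a1 in S1pr1 positive cells was at 0.72 in the WT and -2.09 in the CD1d-deficient pool, 2.81 apart, the latter from 9 UMIs. As means of cells these were 0.23 and -1.67, and at most 10 positive WT cells held 100% of their Slc2a1 UMIs.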

How the results depend on the processing

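No member was called in any of the 4 splits under any of the 12, 12, 11 and 10 alternatives for Cd8a, Ly49, S1pr1 and dividing cells, and the lowest adjusted p among these 395 values was 0.436. The sign of an uncalled member changed in 55 of them. With Cd8a and Ly49 fitted together, Gapdh, Ldha and Pgam1 were at an unadjusted p under 0.05 for Ly49, none of them called. The count of all genes called ran from 1 to 65 for Cd8a (11 as reported), from 4 to 75 for Ly49 (21), from 1 to 41 for S1pr1 (5) and from 1 to 42 for dividing cells (4), leaving out each pool included. DESeq2 called 49, 75, 41 and 42 genes and limma 30, 37, 15 and 1. Without the WT, Jα18-deficient or CD1d-deficient pool the count was 17, 32 and 11 for Cd8a and 33, 31 and 18 for Ly49, 20, 14 and 10 for S1pr1, and 2, 6 and 12 for dividing cells; the cause was not tested.

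Members past 2-fold between pools changed with the weighting of cells. In CD1d-deficient over WT there were 0 in place of 1 as means of cells, in thinned cells and with TMM library sizes, Hk1 being at a log2 ratio of 0.26, 0.46 and 0.96. In Jα18-deficient over WT there was 1 as means of cells and 1 in thinned cells (Hk2, at 1.08 and 1.90), and in CD1d-deficient over Jα18-deficient 1 as means of cells (Hk2, -1.72); Hk2 had 52, 168 and 28 UMIs in the 3 pools. Of the 130 alternative ratios 7 changed sign. Over all cells Ldha stayed lower in both deficient pools than in WT in all 5 alternatives, from -0.57 to -0.45 for Jα18-deficient and from -0.44 to -0.35 for CD1d-deficient cells. No paired analysis was possible because the cells carry no library number; pool was already a term in the class test, and without it 1, 4, 1 and 1 genes and 0 members were called. The depth of the CD1d-deficient pool limits rare members most: Hk2 and Slc2a1 had 28 and 290 UMIs there.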

Other observations

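Of 21 listed regulators of glycolysis, 7 were higher and 13 lower in the CD1d-deficient than in the WT pool when UMIs were summed, and 1 was at 0 in both, with no test. Max was among the lower ones, at 69.5 CPM in WT and 40.6 in CD1d-deficient cells. The other genes given here, 1 of them from the list for the fate of pyruvate, were chosen after their values were seen because they were higher. Txnip, an arrestin that restrains glucose uptake, was at 231 CPM in WT, 253 in Jα18-deficient and 354 in CD1d-deficient cells, and was found in 63.9%, 63.8% and 76.2% of thinned cells. As means of cells it was at 259, 274 and 335. Hif1a, the hypoxia-inducible subunit, was at 34.7, 44.97 and 60.8 as sums, but at 41.2, 45.4 and 46.7 as means of cells, and 10 cells held 79.5% of its UMIs in the CD1d-deficient pool. Pdp2, a phosphatase that switches pyruvate dehydrogenase on, was at 16.9, 33.5 and 38.6, with 73.2%, 79.1% and 87.9% of its UMIs in 10 cells.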
